A study of Mus musculus with 14 samples.

Results

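The genes described here encode 8 transcription factors of male mouse germ cells, grouped under the name pachytene and postmeiotic factors: MYBL1, TCFL5, RFX2, RFX3, CREM, SOX30, TBPL1 and GTF2A1L. They were chosen by name, and the rows of their genes were read in both deposited count tables. All 8 genes were listed there, of 32667 genes in the spermatogonia table and 36888 in the spermatocyte table, and all 8 passed the filter on low counts in every comparison.

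MYBL1 (A-MYB) is the activator that spermatocytes need at pachytene, the long stage of meiosis when homologous chromosomes are fully paired. It acts on meiotic genes and on the loci of pachytene piRNAs, the small RNAs of that stage. TCFL5 is a testis basic helix-loop-helix factor that shares many of its sites. RFX2 and RFX3 bind the X-box of ciliary and flagellar genes, CREM activates genes of haploid spermatids through cAMP response elements, and SOX30 is an HMG-box factor needed at the round spermatid stage. TBPL1 (TRF2) is a relative of the TATA-binding protein TBP, and GTF2A1L (ALF) is the germ cell relative of the large TFIIA subunit GTF2A1. Both belong to the general transcription machinery of late germ cells.

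The samples were sorted germ cells of the testis from Dnmt3CKO/KO mice (KO), which lack the methyltransferase that methylates young retrotransposon promoters in fetal male germ cells, and from wild-type (WT) mice. Spermatogonia came from mice at postnatal day 14, sorted as live, B2M-negative, EpCAM-positive cells, with 3 KO and 3 WT libraries. Spermatocytes came from mice older than 20 days, sorted by DNA content, with 4 KO and 4 WT libraries. All animals were on a C57Bl6/J background, and the knockout was present in the whole animal. Germ cells of these KO males stop at pachytene, so the WT spermatocyte gate also holds later cells. Stage, age and sort cannot be told apart in the comparisons between spermatogonia and spermatocytes.

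Each library held between 40555726 and 53323651 counts. In spermatogonia, Dnmt3c itself had 58 to 116 counts in KO libraries and 53 to 89 in WT libraries, and in spermatocytes 52 to 57 in KO libraries and 11 to 28 in WT libraries. Its RNA therefore did not serve to check the labels. IAPEz-int, an endogenous retrovirus that DNMT3C methylates, had 69044 to 87406 counts in KO libraries and 5129 to 5859 in WT libraries of spermatogonia, and 60588 to 134240 in KO libraries and 2860 to 9388 in WT libraries of spermatocytes, which separated the genotypes in every library. Levels are given as CPM, read counts scaled to an effective total of 1000000 in each library. The 8 pachytene marker genes (Ldhc, Pgk2, Ccna1 and others) summed to between 8333 and 15678 CPM in WT spermatocytes but to 151 to 296 CPM in KO spermatocytes. The sum of the 8 early meiotic markers overlapped between them, with 1316 to 2399 CPM in WT and 1349 to 2353 CPM in KO. Single markers did not all overlap: Dmc1 was at 5.11 to 43.8 CPM in WT and 114 to 128 CPM in KO, and Spo11 was at 122 to 151 CPM in WT and 20.6 to 40.8 CPM in KO. Spermatocyte replicates 1 and 4 were much alike in both genotypes, although they differed by more than the sampling noise, and they were kept as separate libraries. Which animals each library came from was not given, so these replicates may not be independent animals.

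Each of the genes lies on a chromosome of GRCm38 as a protein-coding gene. Mybl1 (ENSMUSG00000025912.16) is at chr1:9667415-9700209 on the minus strand, Tcfl5 (ENSMUSG00000038932.13) at chr2:180621956-180642708 on the minus strand, and Rfx2 (ENSMUSG00000024206.15) at chr17:56775897-56831013 on the minus strand. Rfx3 (ENSMUSG00000040929.17) is at chr19:27761721-28011166 on the minus strand, Crem (ENSMUSG00000063889.16) at chr18:3266048-3337748 on the minus strand, and Sox30 (ENSMUSG00000040489.5) at chr11:45980310-46017994 on the plus strand. Tbpl1 (ENSMUSG00000071359.13) is at chr10:22703879-22731938 on the minus strand, and Gtf2a1l (ENSMUSG00000024154.11) at chr17:88668660-88715152 on the plus strand. Crem makes activator and repressor proteins from alternative exons and promoters, and a count per gene does not separate them.

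RefSeq promoter sequences (GRCm38.p6) were at hand for 6 of the 8 genes and are given for Tcfl5, Rfx2, Sox30, Gtf2a1l and Rfx3. Tcfl5, Rfx2, Sox30 and Gtf2a1l are shown because their windows hold core letters of the MYB or RFX motifs and their RNA fell in KO spermatocytes, and Rfx3 is shown because its RNA did not. Tbpl1, whose RNA also fell, is left out because its window matched neither motif, so the printed windows were picked for having matches. Each sequence is the 250 bases before the start site, read 5′ to 3′ on the strand of the gene. Capitals mark the MYB core AACGG and the RFX half-site GTTGCC, on either strand, and all other letters are in lower case.

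Tcfl5 promoter, chr2:180642692-180642941, minus strand: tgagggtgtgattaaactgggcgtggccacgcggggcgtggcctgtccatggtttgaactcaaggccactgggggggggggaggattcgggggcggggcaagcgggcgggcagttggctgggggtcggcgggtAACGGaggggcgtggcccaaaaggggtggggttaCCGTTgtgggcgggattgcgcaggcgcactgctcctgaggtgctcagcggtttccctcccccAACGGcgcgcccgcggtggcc
Rfx2 promoter, chr17:56831009-56831258, minus strand: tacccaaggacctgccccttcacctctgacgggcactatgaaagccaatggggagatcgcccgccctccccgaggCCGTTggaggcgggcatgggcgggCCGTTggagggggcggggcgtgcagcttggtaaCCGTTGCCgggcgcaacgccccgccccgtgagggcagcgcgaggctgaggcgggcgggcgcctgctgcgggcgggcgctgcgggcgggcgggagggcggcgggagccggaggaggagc
Sox30 promoter, chr11:45980060-45980309, plus strand: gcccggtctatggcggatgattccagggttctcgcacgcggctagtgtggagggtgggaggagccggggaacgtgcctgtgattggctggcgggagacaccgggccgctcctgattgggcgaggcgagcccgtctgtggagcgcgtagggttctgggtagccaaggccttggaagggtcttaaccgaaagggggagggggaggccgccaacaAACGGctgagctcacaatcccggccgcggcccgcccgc
Gtf2a1l promoter, chr17:88668410-88668659, plus strand: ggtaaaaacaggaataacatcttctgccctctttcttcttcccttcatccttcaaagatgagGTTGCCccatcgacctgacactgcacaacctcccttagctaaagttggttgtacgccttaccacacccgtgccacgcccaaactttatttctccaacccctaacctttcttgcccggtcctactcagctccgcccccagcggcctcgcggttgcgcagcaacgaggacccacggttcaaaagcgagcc
Rfx3 promoter, chr19:28011167-28011416, minus strand: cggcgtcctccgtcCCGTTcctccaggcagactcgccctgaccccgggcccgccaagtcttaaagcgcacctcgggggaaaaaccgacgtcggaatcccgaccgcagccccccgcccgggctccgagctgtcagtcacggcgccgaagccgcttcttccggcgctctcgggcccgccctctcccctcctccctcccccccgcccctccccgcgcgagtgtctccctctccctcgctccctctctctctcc

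The MYB core stood 3 times in the Tcfl5 window, at -117 to -113, -83 to -79 and -21 to -17 from the start site, and 3 times in the Rfx2 window, at -175 to -171, -151 to -147 and -118 to -114. It stood 1 time each in the windows of Sox30 (-38 to -34) and Rfx3 (-236 to -232) and was not matched in those of Tbpl1 and Gtf2a1l. Of 32851 mouse promoter windows of this length, 14.5% held the MYB core. The RFX half-site stood 1 time in the Rfx2 window at -116 to -111, where it overlaps the MYB match, and 1 time in that of Gtf2a1l at -188 to -183, and 10.4% of all windows held it. The half-site of the cAMP response element, TGACG, stood 1 time in the Rfx2 window (17.8% of all windows), and the E-box CACGTG in none of the 6 windows (6.0% of all windows). These matches describe the letters only.

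The levels in the WT cells of both gates were compared first. In all, 7 of the 8 factor genes were higher in WT spermatocytes than in WT spermatogonia, and Rfx3 was not. This direction goes with the name of the group for 7 of them. It does not tell use at pachytene or later from use earlier in meiosis. In edgeR's quasi-likelihood test at an adjusted p under 0.01, 7 of the 8 were called, all higher in spermatocytes, beside 52.5% of the 24340 genes tested that were called in either direction and 29.2% that were called higher. The same 7 showed no overlap between the WT groups in CPM, beside 35.3% of all genes that did not overlap in that direction.

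Gtf2a1l had 3.92, 20.2 and 1.37 CPM in WT spermatogonia and 483, 242, 199 and 476 CPM in WT spermatocytes, in the order of the replicates. The change was 5.37 on the log2 scale (SE 0.82, adjusted p = 9.1e-05), the largest of the 8. Rfx2 went from 31.6, 108 and 36.8 CPM to 890, 800, 468 and 996 CPM, a log2 change of 3.74 (SE 0.45). In both genes WT spermatogonia replicate 2 stood above its group, and without it the change was 6.94 for Gtf2a1l and 4.42 for Rfx2.

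Crem rose by 3.38 on the log2 scale (SE 0.39), Tbpl1 by 3.03 (SE 0.27), Tcfl5 by 2.87 (SE 0.27), Sox30 by 2.70 (SE 0.36) and Mybl1 by 2.22 (SE 0.41, adjusted p = 3.6e-04). Mybl1, the factor that acts at pachytene, had the smallest of the changes that were called and was at 51.2, 59.4 and 27.1 CPM in WT spermatogonia and 224, 206, 169 and 258 CPM in WT spermatocytes. Rfx3 had 23.1, 19.8 and 25.2 CPM in WT spermatogonia and 13.9, 6.87, 20.3 and 15.4 CPM in WT spermatocytes. These groups overlapped in 1 pair of libraries, and the log2 change of -0.69 (95% interval -1.36 to -0.01, adjusted p = 0.0702) was not called. Scaled by library totals alone it was -1.46 and was called (adjusted p = 0.00215; range over the alternatives 0.00215 to 0.143), while the median of all genes moved from 0.02 to -0.76. With this scaling the 7 genes called higher were still called, at 1.37 (Mybl1) to 4.45 (Gtf2a1l), and the median of the 8 went from 2.95 to 2.08.

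Compared per length of their merged exons, the levels in WT spermatocytes ran from 261 ± 69.2 CPM per kb for Tcfl5 (SD, n = 4) through Gtf2a1l (186 ± 79.7), Tbpl1 (155 ± 56.2), Rfx2 (108 ± 31.2), Sox30 (55.1 ± 5.22), Mybl1 (39.7 ± 6.86) and Crem (35.5 ± 8.95) to Rfx3 (1.28 ± 0.503). Neighbours among the upper 4 genes overlapped in their libraries. Rfx2 did not overlap with Sox30, nor Sox30 with Mybl1, Mybl1 and Crem overlapped, and Rfx3 stood below every other gene in every library. In KO spermatocytes the order was another: Mybl1 (26.1 ± 10.7 CPM per kb), Tcfl5 (21.5 ± 4.19), Tbpl1 (16.9 ± 1.33), Sox30 (11.1 ± 3.64), Rfx2 (5.06 ± 1.01), Crem (3.11 ± 0.529), Rfx3 (2.32 ± 0.548) and Gtf2a1l (1.02 ± 0.415). Gtf2a1l, next to the top in WT, was the lowest of the 8 in KO spermatocytes.

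**Figure D1:**
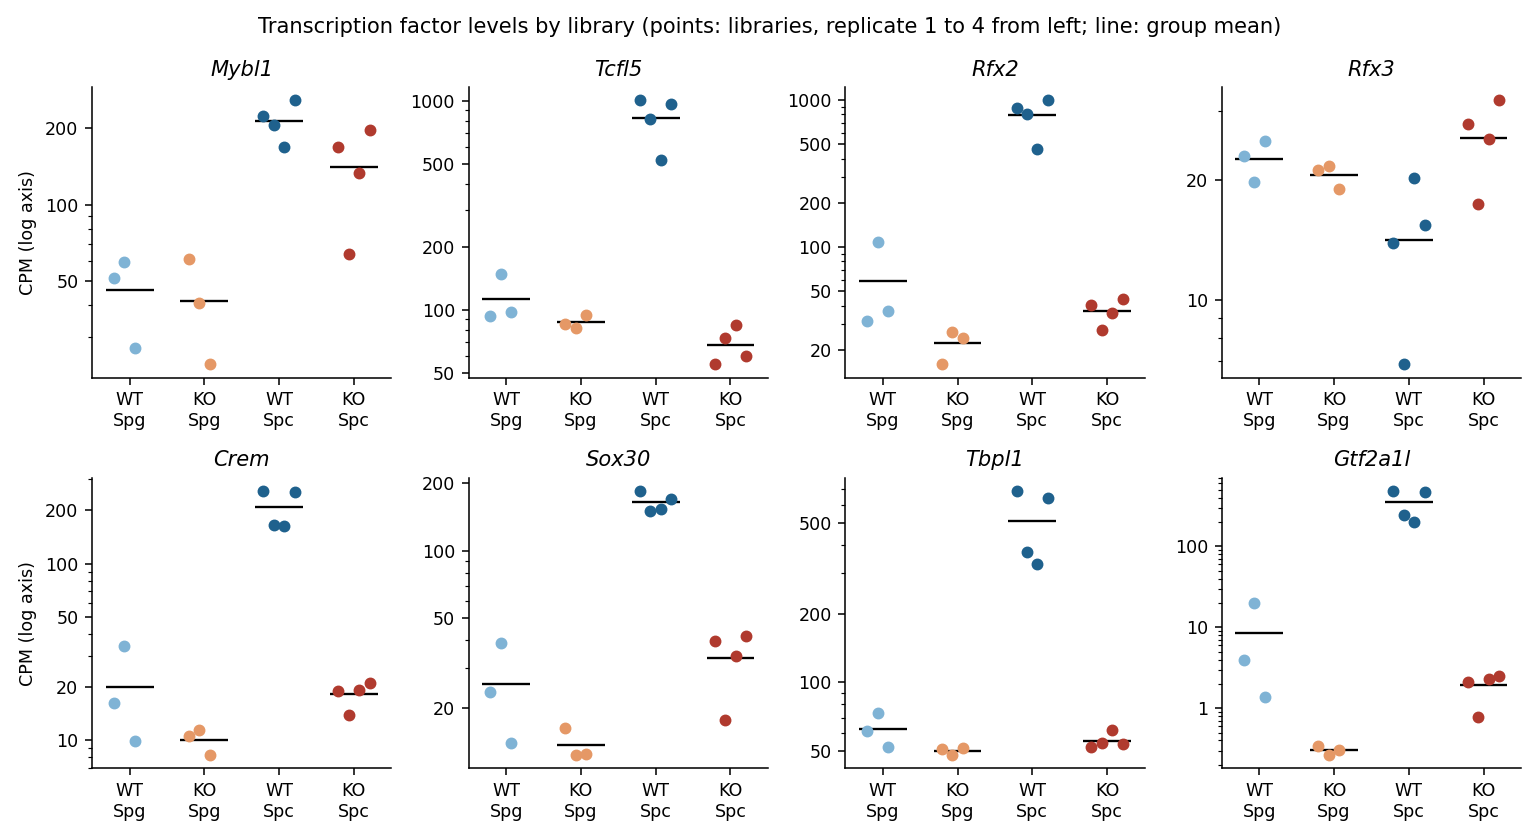
Level of each factor gene in the 14 libraries, in CPM on a log axis, by genotype (WT, KO) and stage (Spg, spermatogonia; Spc, spermatocytes); points are libraries and lines are group means. Tcfl5, Rfx2, Crem, Sox30, Tbpl1 and Gtf2a1l stand higher in every WT spermatocyte library than in any other library, Mybl1 overlaps between WT and KO spermatocytes, and Rfx3 has its lowest mean in WT spermatocytes.

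KO and WT spermatocytes were then compared. There, 6 of the 8 factor genes fell in KO spermatocytes: Gtf2a1l, Rfx2, Tcfl5, Crem, Tbpl1 and Sox30, by 4.9-fold to 181-fold. Mybl1 and Rfx3 were not called. The 6 calls, all lower, stand beside 58.8% of the 21919 genes tested that were called in either direction and 30.7% that were called lower, so a call as such was common. The same 6 did not overlap between KO and WT in CPM, against 33.9% of all genes that did not overlap in that direction. The median log2 fold change over the 8 genes was -3.35, and over all genes 0.11. Scaled by library totals alone both moved up, to -2.60 and 0.79, and the 6 genes, all still called, lay between -6.75 (Gtf2a1l) and -1.61 (Sox30). The 6 calls held when each of the 8 spermatocyte libraries was left out in turn, and when replicates 1 and 4 of each genotype were summed as 1 library. In bulk samples fewer cells of a type and less RNA per cell cannot be told apart.

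Gtf2a1l had 106, 43, 121 and 122 counts in KO spermatocytes and 15651, 8039, 8322 and 13695 in WT, or 0.77 to 2.48 CPM against 199 to 483 CPM. No KO library came near the lowest WT library. The log2 fold change was -7.50 (SE 0.54, 95% interval -8.71 to -6.29, adjusted p = 4.9e-06).

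Rfx2, whose targets build cilia and flagella, had 40.7, 27.2, 35.9 and 44.2 CPM in KO spermatocytes and 890, 800, 468 and 996 CPM in WT. Its log2 fold change was -4.40 (SE 0.31, adjusted p = 4.6e-06), a 21.1-fold difference. Tcfl5 had 54.8, 73.3, 84.2 and 60 CPM in KO and 1004, 819, 521 and 965 CPM in WT. Its log2 fold change was -3.59 (SE 0.28, adjusted p = 7.2e-06). WT replicate 3 was the lowest WT library for both genes and still stood far above each KO library.

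Crem had 19, 13.9, 19.3 and 21.1 CPM in KO and 257, 165, 162 and 253 CPM in WT, with a log2 difference of -3.50 (SE 0.27, adjusted p = 6.3e-06). Tbpl1 had 52.1, 54, 61.8 and 53.7 CPM in KO and 688, 371, 330 and 644 CPM in WT, and differed by -3.19 (SE 0.30, adjusted p = 1.8e-05). Sox30 had 39.5, 17.6, 34.1 and 41.9 CPM in KO and 185, 151, 154 and 171 CPM in WT, and differed by -2.29 (SE 0.28, adjusted p = 8.6e-05). WT replicates 1 and 4 were the highest for each of these genes and KO replicate 2 was the lowest for Crem and Sox30.

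Mybl1 overlapped between the genotypes. It had 169, 63.7, 133 and 197 CPM in KO spermatocytes and 224, 206, 169 and 258 CPM in WT, with KO replicate 2 the lowest. The log2 fold change was -0.59 (SE 0.32, 95% interval -1.31 to 0.13, adjusted p = 0.125), and scaled by library totals it was 0.11, so its direction depended on the scaling. The interval does not reach the size of change of any gene that was called, of which Sox30 changed least.

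Rfx3 had 27.7, 17.4, 25.4 and 31.8 CPM in KO and 13.9, 6.87, 20.3 and 15.4 CPM in WT spermatocytes. KO replicate 2 lay within the WT range. The log2 fold change was 0.88 (SE 0.36, 95% interval 0.07 to 1.68, adjusted p = 0.0504). With library totals it was 1.52 and was called (adjusted p = 0.00674; range over the alternatives 0.00674 to 0.167), where the median of all genes also moved, from 0.11 to 0.79.

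**Figure D2:**
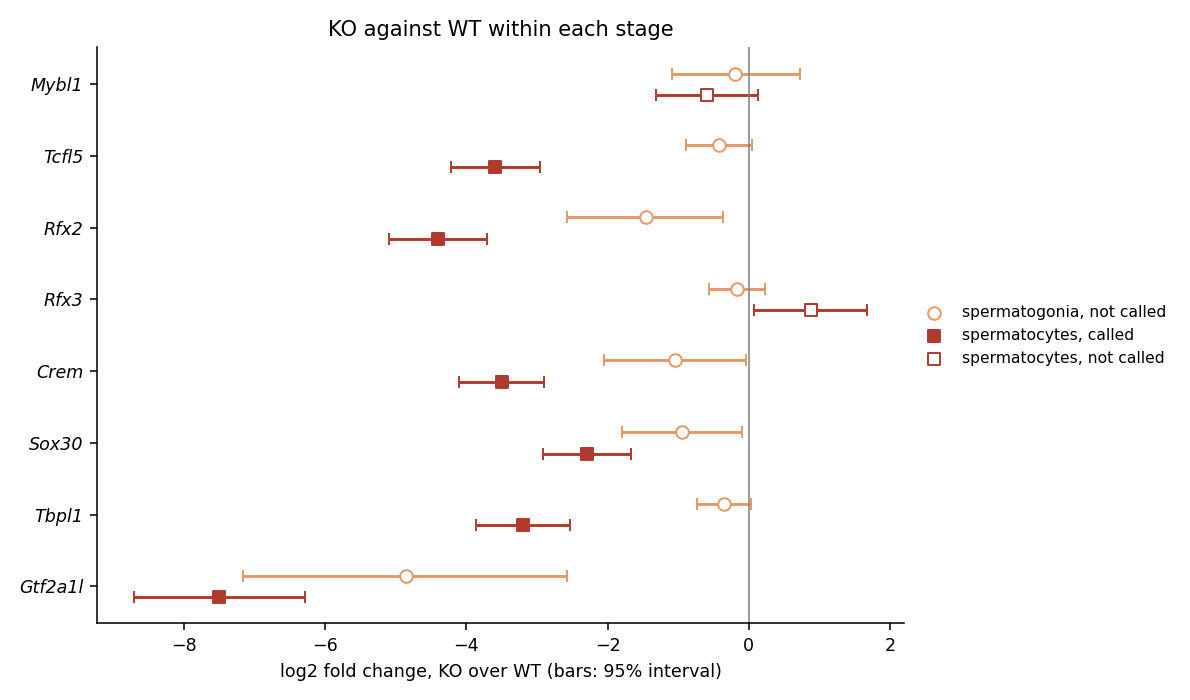
Log2 fold change of KO over WT for each factor gene in spermatogonia (circles) and spermatocytes (squares), with 95% intervals; filled symbols were called at an adjusted p under 0.01. In spermatocytes 6 genes lie between -7.50 and -2.29 and were called, and in spermatogonia all 8 lie below 0 and none was called.

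Markers of other cells were counted in these libraries, beside 28.0% of all genes called higher in KO and 30.7% called lower. All 5 Leydig markers were called higher in KO spermatocytes, with a summed level of 53.4 to 318 CPM against 13.9 to 29.5 CPM in WT. All 4 macrophage markers were called higher (24.4 to 79.6 against 2.3 to 5.65 CPM), as were 3 of 4 peritubular markers (16.9 to 168 against 3.55 to 10.3 CPM), each a share above that of all genes. Of 6 Sertoli markers 1, Gata4, was called higher, but all 6 lay above 0, from 0.82 to 2.90 with a median of 1.60 on the log2 scale, and their sums overlapped (248 to 914 against 108 to 429 CPM). None of these markers was at 0 in every library of a group, and the 4 erythroid markers summed to at most 9.56 CPM. Of 8 spermatogonia markers 6 were higher and 1 lower in KO, with 439 to 964 CPM against 170 to 410 CPM, and of 8 early meiotic markers 4 were higher and 1 lower. All 8 pachytene and all 8 spermatid markers were lower in KO. The part of these markers in the results on the factor genes was not tested.

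Spermatid RNA varied among the WT spermatocyte libraries. Summed over the 7 of 8 spermatid markers that both tables list, it was at 425, 58.7, 1215 and 370 CPM in WT replicates 1 to 4 and at 5.61 to 11.1 CPM in KO. The library with the least spermatid RNA, replicate 2, had 165 CPM of Crem, 151 CPM of Sox30, 242 CPM of Gtf2a1l, 371 CPM of Tbpl1, 800 CPM of Rfx2 and 819 CPM of Tcfl5. The library with the most, replicate 3, had 162, 154, 199, 330, 468 and 521 CPM. The part of spermatid RNA in these levels was not tested.

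Ratios of counts within a library do not depend on the scaling between libraries, and 4 of them were taken after the values had been seen. There were 0.324, 1.15, 0.632 and 0.305 Tcfl5 counts per Mybl1 count in KO spermatocytes and 4.49, 3.98, 3.08 and 3.74 in WT. In spermatogonia this ratio overlapped, with 1.41 to 4.06 in KO and 1.82 to 3.61 in WT. Rfx2 counts per Rfx3 count were 1.39 to 1.56 in KO spermatocytes and 23 to 116 in WT, and 0.751 to 1.27 in KO spermatogonia and 1.37 to 5.49 in WT spermatogonia, with no overlap at either stage.

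The germ cell forms of general factors were set against their relatives in the same way. There were 0.769 to 0.878 Tbpl1 counts per Tbp count in KO spermatocytes and 1.44 to 2 in WT, while KO spermatogonia had 0.732 to 0.849 and WT spermatogonia 0.777 to 0.948. Gtf2a1l counts per Gtf2a1 count were 0.0111 to 0.0212 in KO spermatocytes and 1.47 to 4.15 in WT, and 0.00329 to 0.00413 in KO spermatogonia and 0.014 to 0.234 in WT spermatogonia. In WT spermatocytes the germ cell form of the TFIIA subunit thus had more counts than the general one, and in KO it had far fewer. Tbp itself fell in KO spermatocytes (log2 fold change -2.05, SE 0.23, adjusted p = 4.9e-05), from 206 to 344 CPM in WT to 61.5 to 77.8 CPM. Gtf2a1 was at 69.2 to 117 CPM in KO and 116 to 138 CPM in WT and was not called (-0.32, 95% interval -0.78 to 0.14, adjusted p = 0.181).

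**Figure D3:**
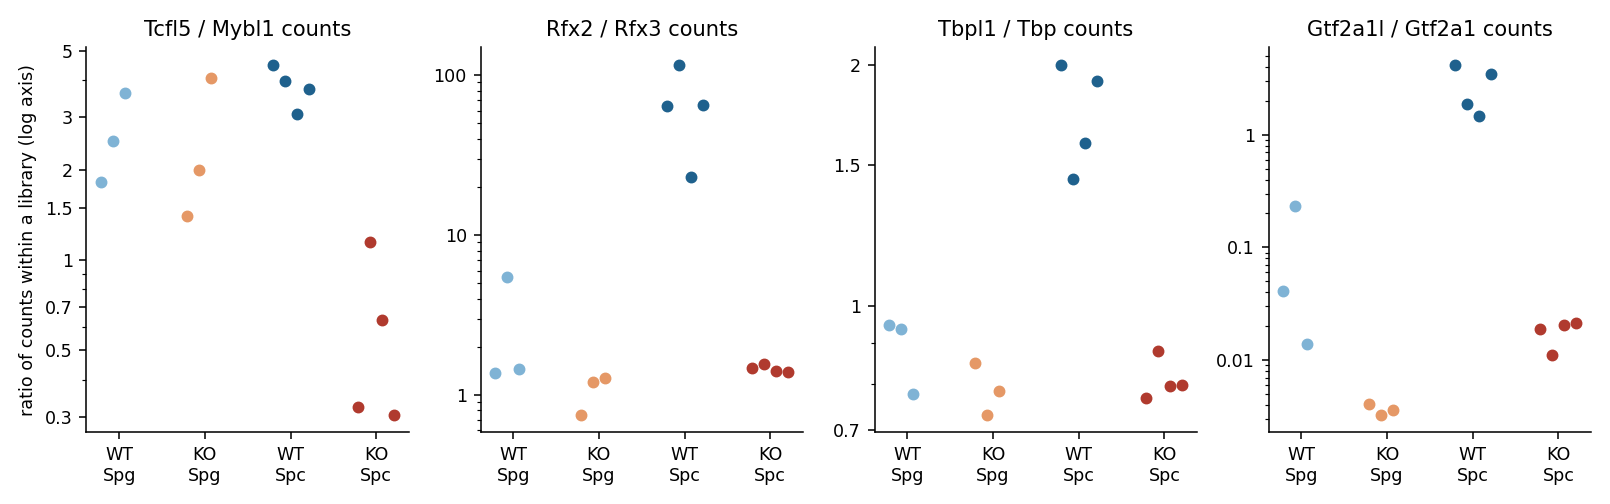
Ratio of the counts of a pair of genes within each library, on a log axis, for Tcfl5 to Mybl1, Rfx2 to Rfx3, Tbpl1 to Tbp and Gtf2a1l to Gtf2a1; points are libraries of the groups WT and KO spermatogonia (Spg) and spermatocytes (Spc). WT and KO spermatocytes do not overlap in any of the panels.

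KO and WT spermatogonia were compared in the same way. Every WT spermatogonia library held more RNA of pachytene markers than any KO library (summed, 237 to 1366 against 98.3 to 113 CPM). None of the 8 factor genes was called in KO against WT spermatogonia by edgeR, where 0.0436% of 20659 genes were called (9 genes, and 108 with the replicate number as a block, which still called none of the 8). At an unadjusted p under 0.05 there were 4 of the 8 (Gtf2a1l, Rfx2, Sox30 and Crem), against 7.30% of all genes, and DESeq2 called 1, Gtf2a1l, against 2.49% of all genes. All 8 fold changes were below 0, with a median of -0.68 on the log2 scale against 0.02 over all genes. Without WT spermatogonia replicate 2 the median was -0.30 and 7 of the 8 were below 0. For 3 of the 8 (Gtf2a1l, Rfx2 and Tbpl1) every KO library lay under every WT library, as did 6.28% of all genes.

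Gtf2a1l had 20, 15 and 17 counts in KO spermatogonia and 227, 1016 and 75 in WT, or 0.264 to 0.342 CPM against 1.37 to 20.2 CPM. Its WT libraries spread over a wide range, with replicate 2 at the top. The log2 fold change was -4.86 (SE 1.00, 95% interval -7.16 to -2.57, adjusted p = 0.106; range over the alternatives 7.7e-08, by DESeq2, to 0.561), and it was -3.13 without WT replicate 2. Rfx2 had 15.9, 26.4 and 24.1 CPM in KO and 31.6, 108 and 36.8 CPM in WT (log2 fold change -1.46, SE 0.48, adjusted p = 0.404), and the change was -0.63 without WT replicate 2.

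Crem had 10.6, 11.4 and 8.25 CPM in KO and 16.2, 34.1 and 9.94 CPM in WT spermatogonia (-1.04, SE 0.44, adjusted p = 0.652), and the change was -0.38 without WT replicate 2. Sox30 had 16.3, 12.3 and 12.5 CPM in KO and 23.6, 38.9 and 13.9 CPM in WT (-0.94, SE 0.37, adjusted p = 0.582), and the change was -0.46 without WT replicate 2. Both genes overlapped between the genotypes, although KO was lower than WT in each of the 3 same-numbered pairs.

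Tbpl1 was at 51.1, 48 and 51.4 CPM in KO and 61.1, 73.3 and 52.3 CPM in WT spermatogonia (-0.35, 95% interval -0.74 to 0.03). The intervals of Tcfl5 (-0.42, -0.89 to 0.05), Mybl1 (-0.19, -1.09 to 0.72) and Rfx3 (-0.17, -0.56 to 0.23) held 0. Tcfl5, like Tbpl1, was lower in KO in each of the 3 same-numbered pairs. Without WT replicate 2 Tbpl1 was at -0.18 and Tcfl5 at -0.13. WT replicate 2 was the highest WT spermatogonia library for each of the genes but Rfx3, for which it was the lowest. The same library had 1366 CPM of summed pachytene markers, against 408 and 237 CPM in WT replicates 1 and 3, and the part of this in the values above was not tested. Leydig, macrophage and peritubular markers summed to at most 10.2 CPM in any spermatogonia library, and Sertoli markers to 336 to 1194 CPM in KO and 251 to 917 CPM in WT.

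An interaction term, fitted on the 14 libraries together, asked whether the KO effect depended on the stage. The difference of KO from WT was more negative in spermatocytes than in spermatogonia for Tcfl5 (-3.23, SE 0.35, adjusted p = 1.5e-04), Rfx2 (-3.00, SE 0.55, adjusted p = 0.00117), Tbpl1 (-2.89, SE 0.35, adjusted p = 1.5e-04) and Crem (-2.52, SE 0.49, adjusted p = 0.00153), on the log2 scale. These 4 calls, all lower, stand beside 25.7% of all genes called in either direction and 14.6% called lower. Gtf2a1l (-2.71, SE 1.02, adjusted p = 0.0427) and Sox30 (-1.42, SE 0.46, adjusted p = 0.0232) were not called. Without WT spermatogonia replicate 2 Rfx2 was at -3.73, both of these genes were called and 6 of the 8 passed. In that fit 6127 of 25188 genes were called, 3432 of them lower. Gtf2a1l was then at -4.34 (adjusted p = 1.0e-03, range over the alternatives 1.0e-03 to 0.119) and Sox30 at -1.80 (adjusted p = 0.00637, range 0.00637 to 0.229). Crem was not called when library totals were used (adjusted p = 0.0102; range 1.6e-05 to 0.0102), a scaling that moved the median of the 8 from -2.61 to -1.83 and that of all genes from 0.2 to 0.9. Mybl1 was at -0.47 (95% interval -1.62 to 0.69) and Rfx3 at 0.99 (95% interval 0.03 to 1.95, adjusted p = 0.0852).

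Within KO the step from spermatogonia to spermatocytes was small for most of these genes. None of the 8 was called by edgeR in KO spermatocytes against KO spermatogonia, where 3.05% of 24340 genes were called. At an unadjusted p under 0.05 there were 4 of the 8 (Mybl1, Sox30, Gtf2a1l and Crem), against 24.5% of all genes, and DESeq2 called 3 (Mybl1, Gtf2a1l and Sox30), against 9.60% of all genes. For 6 of the 8, all but Tcfl5 and Rfx3, every KO spermatocyte library lay above every KO spermatogonia library, as did 15.4% of all genes.

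Mybl1 was at 61, 40.8 and 23.3 CPM in KO spermatogonia and at 169, 63.7, 133 and 197 CPM in KO spermatocytes. The log2 change was 1.76 (SE 0.40, adjusted p = 0.0164; range over the alternatives 9.7e-04 to 0.127), beside 2.22 in WT. It was called without KO spermatocyte replicate 2 (1.96, adjusted p = 0.00527).

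Sox30 changed by 1.28 (SE 0.34, adjusted p = 0.0313) in KO beside 2.70 in WT, and Gtf2a1l by 2.66 (SE 0.78, adjusted p = 0.0506) beside 5.37. Tcfl5 was at 85.8, 81.7 and 94.4 CPM in KO spermatogonia and at 54.8, 73.3, 84.2 and 60 CPM in KO spermatocytes (-0.36, 95% interval -0.87 to 0.16), beside 2.87 in WT. Tbpl1 was at 0.14 (95% interval -0.37 to 0.66) beside 3.03, Rfx2 at 0.74 (95% interval -0.09 to 1.57) beside 3.74, Crem at 0.86 (95% interval 0.12 to 1.60) beside 3.38, and Rfx3 at 0.31 (95% interval -0.38 to 0.99) beside -0.69. The WT and KO steps share no library with each other, and the interaction above is the test of their difference. All 4 macrophage, 3 of 5 Leydig and 1 of 4 peritubular markers were also called higher in KO spermatocytes than in KO spermatogonia, beside 3.01% of all genes, and their part in these changes was not tested.

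**Figure D4:**
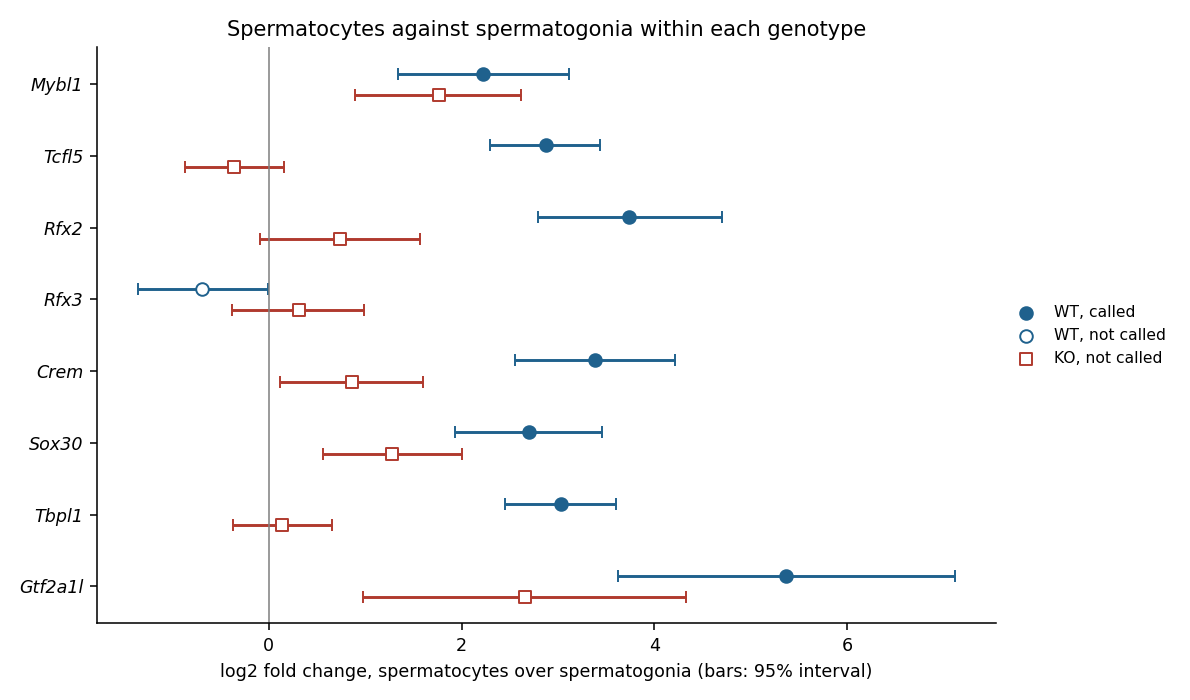
Log2 fold change of spermatocytes over spermatogonia for each factor gene in WT (circles) and KO (squares), with 95% intervals; filled symbols were called at an adjusted p under 0.01. The WT change is 2.22 or more for all genes but Rfx3, and in KO the changes run from -0.36 for Tcfl5 to 2.66 for Gtf2a1l with none called.

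Genes that these factors are known to act on were counted in KO against WT spermatocytes, where 30.7% of all genes were called lower and 28.0% higher. Of 10 piRNA pathway genes bound by MYBL1, 8 fell, none rose, and the median was -3.37 on the log2 scale. Piwil1, the Argonaute protein that carries pachytene piRNAs, went from 2007 to 3690 CPM in WT to 9.51 to 18.4 CPM in KO (-7.57, SE 0.35, adjusted p = 2.5e-06). The Mybl1 groups overlapped in the same comparison, and a link between the levels of Mybl1 and of these genes was not tested. Tdrd6, a Tudor protein of the chromatoid body, fell by 9.15 (SE 0.92). Mael, a piRNA factor, fell by 3.31 (SE 0.29). The 2 that were not called were Piwil2 (-0.93, adjusted p = 0.0129), which fetal germ cells and spermatogonia use already, and Mov10l1 (0.07, 95% interval -0.46 to 0.60), the helicase that feeds piRNA production.

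Of 9 RFX targets, 8 fell and none rose, with a median of -2.93. Ift172, a protein of the transport along cilia, fell by 4.37 (SE 0.30), Spag6l, of the axoneme central pair, fell by 9.15 (SE 0.86), and Foxj1, itself a ciliary transcription factor, fell by 4.21 (SE 0.55). Bbs4 was not called (-0.61, adjusted p = 0.0329).

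Of 10 CREM targets, 8 fell and none rose, with a median of -8.79. Tnp1, a transition protein of spermatid chromatin, was at 7.66 to 180 CPM in WT and 0.142 to 1.7 CPM in KO. Prm1, a protamine, fell by 7.85 (SE 1.68, adjusted p = 0.0021) and Akap4, of the sperm tail, fell by 9.30 (SE 0.95). Ace (1.09, 95% interval -0.14 to 2.32) and Camk4 (0.21, 95% interval -1.12 to 1.54) were not called. Both are made in somatic cells as well, and the part of such cells in their values was not tested. Medians of these lists stand beside 0.11 over all genes, and the lists share H1f6, Tnp1, Tnp2, Prm1 and Prm2 with the pachytene and spermatid markers.

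Relatives and partners of the factors were counted in the same comparison. Of 19 tested, 8 fell and 6 rose in KO spermatocytes, with a median of -0.29, beside 30.7% of all genes called lower and 28.0% higher. Rfx4, another RFX gene, had 116 to 208 CPM in WT and 0.161 to 0.93 CPM in KO spermatocytes (-8.03, SE 0.56, adjusted p = 4.3e-06), and Fhl5 (ACT), the testis coactivator of CREM, fell by 8.14 (SE 0.95). Myb rose by 2.85 (SE 0.69) from at most 7 counts in a WT library, and Taf7l (3.91, SE 0.66) and Taf4b (3.06, SE 0.51), germ cell forms of TFIID subunits, rose. The general coactivators Crebbp (1.25, SE 0.21) and Ep300 (0.91, SE 0.20) rose as well.

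Of 8 other regulators of male germ cells, some used earlier, 4 fell and 1 rose, beside the same shares of all genes (30.7% and 28.0%). Phf7 went from 2150 to 4469 CPM in WT to 72.2 to 138 CPM in KO spermatocytes (-5.03, SE 0.36), and Hsf5, a heat shock factor relative of spermatocytes, fell by 3.80 (SE 0.33). Kctd19 fell by 3.21 (SE 0.35) and its partner Zfp541 fell by 2.25 (SE 0.35). Hsf2 rose by 0.96 (SE 0.27, adjusted p = 0.009).

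**Figure D5:**
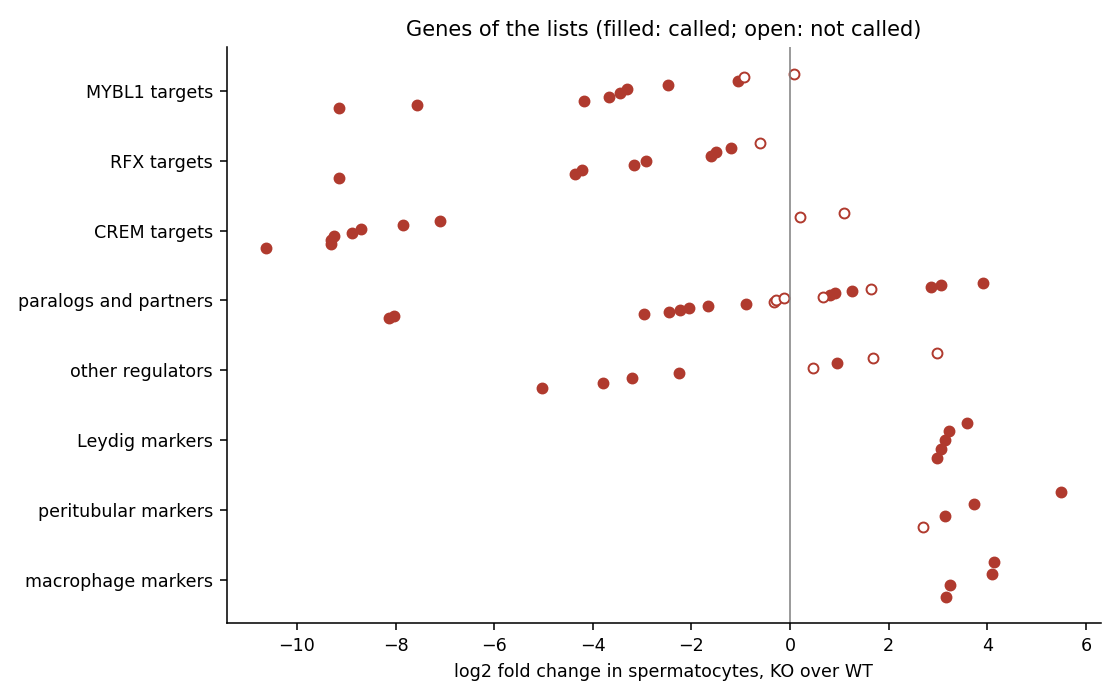
Log2 fold change of KO over WT spermatocytes for each gene of the target, partner and regulator lists and of the Leydig, peritubular and macrophage markers; filled points were called at an adjusted p under 0.01. Called targets of MYBL1, RFX factors and CREM lie below 0, partners lie on both sides, and the somatic markers lie above 0.

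The genes whose pattern over the 14 libraries was most like each factor gene were found by Pearson's r of log2(CPM + 0.5) among 16918 genes. The libraries share depth, stage and genotype groups, so these values describe likeness only. For Tcfl5 they were Mael, Nxt1 and Cds1 (r = 0.999, 0.999 and 0.998), for Rfx2 Crat, Prss44 and Sord (0.998, 0.998 and 0.997), and for Crem Cage1, Catspere2 and Ccdc96 (0.999, 0.999 and 0.998). For Gtf2a1l they were Spata16, Cmtm2a and Pnma1 (0.999, 0.998 and 0.998), for Tbpl1 Itgae, Gm35202 and Gm43971 (0.998 each), and for Sox30 Inafm2, Stard6 and Stpg2 (0.994, 0.993 and 0.992).

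Mybl1 was most like Cspp1 and Nemf (0.983 and 0.982), and Rfx3 most like Rp2, Srp54c and Tmod2 (0.959, 0.956 and 0.944). Among the factor genes themselves, Rfx2, Crem and Gtf2a1l were closest to each other (r = 0.99 for each pair). Mybl1 was nearest to Sox30 (0.87) and farther from Tcfl5 (0.57), and Rfx3 ran against each of the other genes, from -0.75 with Tcfl5 to -0.28 with Mybl1.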

How the data were processed

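Polyadenylated RNA of sorted germ cells was sequenced in 14 libraries with a stranded kit. The authors trimmed reads (cutadapt 4.0), aligned them to GRCm38 with STAR 2.7.3a and counted genes and transposable element subfamilies by strand with TEtranscripts, and they deposited raw read counts per library for each stage. The tables also hold the authors' fold changes and p-values (DESeq2 1.44.0), which were not used. Deposited TPM tables of single transposon copies were not used here. By the study's methods, 1 spermatogonia library of each genotype was left out for low RNA quality.

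Counts were tested with edgeR 4.0.16 (R 4.3.3): filterByExpr, TMM factors over genes and transposon subfamilies, the quasi-likelihood test and Benjamini-Hochberg adjustment over all features tested, called at an adjusted p under 0.01. Shares of genes called are over genes alone. Each stage was fitted alone, and the comparisons between stages and the interaction over all 14 libraries on the 32191 features in both tables. The 5 comparisons share libraries. Each SE was the size of the log2 change divided by the square root of the test's F value. The 95% intervals used this SE and a t quantile. Printed CPM used TMM factors of all 14 libraries, so ratios of CPM differ slightly from fitted folds, and CPM per kb used merged exons of GENCODE M21. Groups without overlap were counted over genes in both tables. Tests were tried on simulated data. The sources give littermates as the source of the cells but not which library came from which animal, so p-values measure the spread between libraries.

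In spermatogonia the deviations of same-numbered KO and WT libraries from their group means correlated (0.73, 0.15 and 0.30 for replicates 1 to 3). The numbers were therefore taken to pair them in the replicate block and in the counts of same-numbered pairs. KO replicate 2 was more like WT replicate 3 than WT replicate 2, so this pairing is uncertain, and the main test did not use it. Spermatogonia replicate 3 by its title is replicate 4 in the count table. Alternatives were DESeq2 1.42.0, its size factors, library totals, no filter, an adjusted p under 0.05, the replicate block, each library left out, and spermatocyte replicates 1 and 4 summed. Text names all 8 factor genes, examples from gene lists and, for each factor gene, the 3 genes most like it among those with a mean of at least 1 CPM, of which 1 is not reported here. The genes, lists and tests were chosen with earlier results of these data known. At most 186 counts lay in any gene sharing exon bases with a factor gene on the other strand in a spermatocyte library (Col9a3 with Tcfl5, Gm6225 with Crem, Slc2a12 with Tbpl1).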

Additional observations from a re-analysis of the deposited data

Results flagged for a closer look

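The genotype effect differed between spermatocytes and spermatogonia for 4 of the factor genes by the interaction test in edgeR, over 14 libraries. The difference was -3.23 for Tcfl5, -3.00 for Rfx2, -2.89 for Tbpl1 and -2.52 for Crem on the log2 scale. In each the difference of KO from WT was more negative in spermatocytes. Without WT spermatogonia replicate 2 the values were -3.43, -3.73, -2.98 and -3.09. Dixon's criterion marked no library in the 16 groups of 4 spermatocyte libraries, and it was not applied to the groups of 3 spermatogonia libraries.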

How the results depend on the processing

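Of 608 values of single factor genes under an alternative, 589 kept their direction and their side of the threshold, 14 passed the threshold where the reported value did not, 1 (Crem in the interaction, library totals) no longer passed it, and 4 changed sign. All 4 were Mybl1, which was called in none of those comparisons: -0.54 to 0.11 in spermatogonia with single libraries left out (0.11 without KO replicate 3 and 0.08 without WT replicate 2), 0.11 in spermatocytes with library totals and 0.27 in the interaction with library totals. The cause was not tested. In spermatogonia the count of factor genes called went from 0 to 1 with DESeq2. In KO spermatocytes against KO spermatogonia it went from 0 to 2 at an adjusted p under 0.05 and to 3 with DESeq2. With the replicate block it went to 1 (Mybl1, 1.77, adjusted p = 0.00899), beside 515 of 24340 genes. That block pairs same-numbered KO and WT libraries within each stage. With single libraries left out it went from 0 to 1 (1 without KO spermatocyte replicate 2, beside 889 of 24051 genes). In KO against WT spermatocytes it was 6, and 7 with library totals. The replicate block changed no other call of a factor gene. In spermatocytes same-numbered libraries did not all deviate together (0.08, 0.23, -0.04 and 0.13), so there the block shares a number only.

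Over all genes, calls in spermatogonia went from 9 to 56 at an adjusted p under 0.05, 514 with DESeq2, 144 with no filter and 108 with the replicate block. In KO spermatocytes against KO spermatogonia they went from 742 to 2043, 2337 with DESeq2 and 346 with replicates 1 and 4 summed, and in the interaction from 6251 to 11191, 9865 and 3521. With single libraries left out they ranged from 0 to 18 in spermatogonia, from 112 to 1005 in KO spermatocytes against KO spermatogonia and from 3793 to 8993 in the interaction. With library totals the split of higher and lower calls went from 6145 and 6740 to 8074 and 4880 in spermatocytes, from 7103 and 5674 to 4541 and 8724 between the WT stages, and from 2690 and 3561 to 4252 and 1733 in the interaction. Depth did not limit the levels of these genes except for Gtf2a1l in KO spermatogonia, at 15 to 20 counts.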
